A study of Mus musculus with 6 samples.

Results

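The 10 genes described here encode the main building blocks of the basement membrane and were chosen by symbol: the laminin chain genes Lama1, Lama5, Lamb1 and Lamc1, the collagen IV genes Col4a1 and Col4a2, the nidogen genes Nid1 and Nid2, the perlecan gene Hspg2 and the matrix glycoprotein gene Sparc. All 10 were found among the 49585 gene rows of the table, and all 10 passed the filter on low counts that left 11594 genes. The libraries were made from RNA of epiblast-like cells (EpiLCs) of the C57BL/6 mouse strain, a culture counterpart of the early postimplantation epiblast, collected on day 2 after embryonic stem cells had been placed on fibronectin in medium with KSR (1%), bFGF at 12 ng/mL and activin A at 20 ng/mL. A group of 3 wild-type (WT) libraries was compared with 3 libraries of Cables2-/- cells (KO), which lack the gene of a protein that binds cyclin-dependent kinases. Both groups had the same strain, medium and day of collection. The labels do not say how the deletion was made, whether a group is 1 clone or several, or whether its libraries are separate cultures, so the p-values rest on the spread among these libraries alone, and it may be technical.

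A basement membrane is a thin sheet of extracellular matrix under epithelia. Laminins are trimers of an alpha, a beta and a gamma chain that polymerise on the cell surface and bind integrins and dystroglycan. Collagen IV forms a covalent second network, nidogens and the heparan sulphate proteoglycan perlecan link the networks, and Sparc binds collagen. In the mouse embryo the epiblast rests on such a sheet, the gamma chain encoded by Lamc1 is needed for it to form, and the parietal endoderm is a rich source of laminin and collagen IV.

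Library totals ran from 4234788 to 5206717 counts. Cables2 had 111 to 121 counts in each WT library and 4 to 11 in each KO library, so every library carried the level of its label. The EpiLC marker genes were present in all libraries, with a summed level of 6939 to 7155 CPM in WT and 6916 to 7114 CPM in KO (CPM, counts per 1000000 after scaling of library sizes with TMM factors). Of these 9 markers, 2 rose and 3 fell in the test described below, so similar sums do not show a similar cell state. Mitochondrially encoded transcripts held 0.141% to 0.152% of each WT library and 0.204% to 0.243% of each KO library. These groups did not overlap, and the part of this difference in the results below was not tested. In bulk RNA, fewer cells of a type and less RNA per cell cannot be told apart.

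Most of the 10 transcripts were lower without Cables2. In the test across all genes, 7 of 10 fell and 1 rose at an adjusted p under 0.05 (edgeR quasi-likelihood test, Benjamini-Hochberg adjustment over all 11594 genes), and the median log2 fold change of KO minus WT was -0.21. Among all tested genes, 9.13% fell and 8.13% rose by the same rule, and the median was 0.01. The 10 genes and all lists below were chosen with earlier results of these data known. Comparisons of their counts with the shares of all genes therefore describe the lists and cannot show an excess. These shares were not matched for level, and smaller changes can be called at higher counts. Hspg2, Lama5, Lamc1, Lamb1, Nid2 and Sparc lay above 89.2% to 98.6% of tested genes in mean CPM. Col4a1, Col4a2, Nid1 and Lama1 lay above 26.8% to 76.0%. The genes that fell were Col4a1, Col4a2, Nid1, Nid2, Lamc1, Hspg2 and Sparc. The gene that rose was Lamb1, and Lama1 and Lama5 did not pass. In 6 of the 7 genes that fell, all except Hspg2, the 3 KO libraries lay below the 3 WT libraries, and in Lamb1 they lay above. Among all tested genes the groups did not overlap in 31.6%, with KO below in 16.0% and above in 15.6%. The number that fell was 4 with DESeq2, where 11.6% of genes passed in either direction, and 4 without KO library 06. Col4a1, Col4a2, Nid2 and Lamc1 passed in all 12 alternative fits, as did Lamb1.

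**Figure D1:**
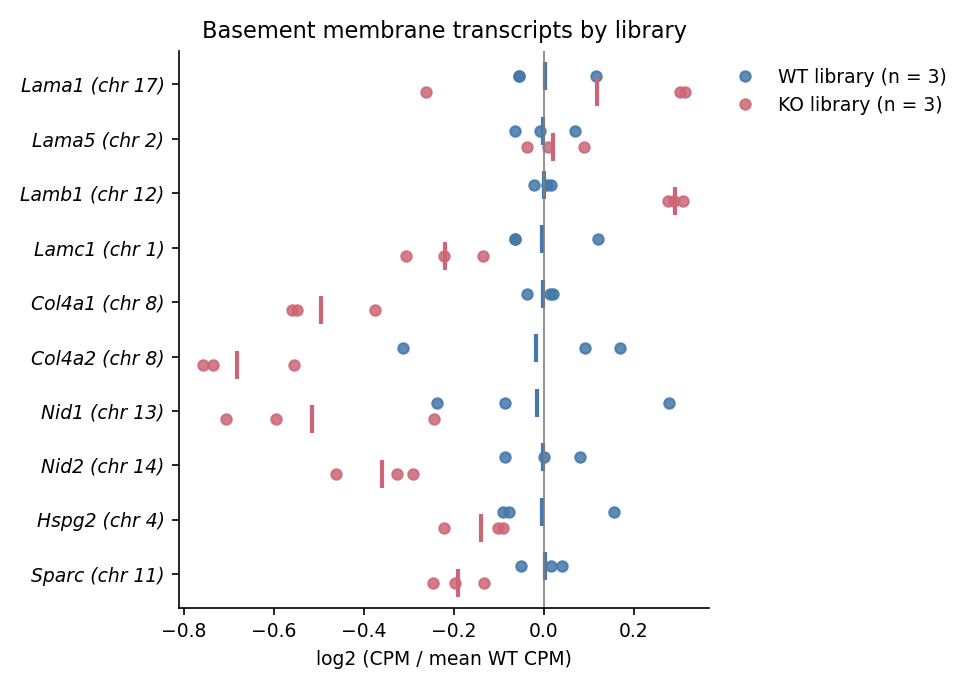
Level of each gene in each library, as log2 of CPM over the mean WT CPM (horizontal axis), with the chromosome in brackets; points are libraries (3 per group) and vertical ticks are group means. The KO points of Col4a1, Col4a2, Nid1, Nid2, Lamc1 and Sparc lie to the left of all WT points, those of Lamb1 lie to the right, and those of Lama1 and Lama5 mix with WT; Hspg2 is lower on average, with groups that touch.

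Both collagen IV genes fell. Col4a1, which encodes the alpha 1 chain, had 88.4, 92.0 and 91.6 CPM in WT libraries 01, 02 and 03 and 69.9, 61.5 and 62.0 CPM in KO libraries 04, 05 and 06. All KO libraries lay below all WT libraries, and the means were 90.7 ± 1.99 and 64.4 ± 4.71 CPM (SD, n = 3 each). Its log2 fold change was -0.49 ± 0.08 (SE; edgeR adjusted p = 3.08e-06). Col4a2, the gene of the alpha 2 chain that joins alpha 1 in the trimer, had 49.6, 35.5 and 47.0 CPM in WT and 26.1, 30.0 and 26.5 CPM in KO. WT library 02 was the lowest WT library and still lay above the highest KO library. The means were 44.1 ± 7.51 and 27.5 ± 2.16 CPM (SD, n = 3 each), a log2 fold change of -0.68 ± 0.12 (adjusted p = 1.32e-05). Together the pair held 135 ± 6.22 CPM in WT and 91.9 ± 3.79 CPM in KO, so that KO had 68.2% of the WT sum. The ratio of Col4a1 to Col4a2 counts overlapped between the groups: the log2 ratio was 1.06 ± 0.28 in WT and 1.23 ± 0.19 in KO, a difference of 0.17 (SD, n = 3 each; exact two-sided permutation test, p = 0.4, adjusted p = 0.625 over 5 ratios).

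Col4a1 and Col4a2 lie head to head on chromosome 8 and are transcribed away from each other. Col4a1 (ENSMUSG00000031502.11) spans 11198423 to 11312826 on the minus strand and Col4a2 (ENSMUSG00000031503.13) 11312805 to 11449287 on the plus strand (mm10), so that the annotated genes share 22 bases at their 5′ ends. The RefSeq promoter windows (build GRCm38.p6, 250 bases before to 50 bases after the start site, each 5′ to 3′ on the strand of its gene) are shown because both genes fell together. They are chr8:11312777-11313076, minus strand, for Col4a1 and chr8:11312555-11312854, plus strand, for Col4a2. Capitals mark the 78 bases that both windows contain, as reverse complements of each other.
Col4a1: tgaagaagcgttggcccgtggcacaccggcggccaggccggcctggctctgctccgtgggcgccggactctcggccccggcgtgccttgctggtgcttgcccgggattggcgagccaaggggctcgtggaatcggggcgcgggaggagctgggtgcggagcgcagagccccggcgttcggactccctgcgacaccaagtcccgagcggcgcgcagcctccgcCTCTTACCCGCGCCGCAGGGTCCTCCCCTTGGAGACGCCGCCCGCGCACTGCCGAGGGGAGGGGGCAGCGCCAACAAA
Col4a2: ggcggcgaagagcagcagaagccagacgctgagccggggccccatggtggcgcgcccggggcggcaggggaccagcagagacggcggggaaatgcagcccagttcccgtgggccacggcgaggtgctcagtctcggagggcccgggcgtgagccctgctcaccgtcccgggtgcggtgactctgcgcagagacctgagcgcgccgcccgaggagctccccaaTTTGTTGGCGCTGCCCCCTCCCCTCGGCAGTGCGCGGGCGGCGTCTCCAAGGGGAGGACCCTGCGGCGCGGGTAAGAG
The GC-box letters GGGCGG, searched on both strands, occurred 1 time in the Col4a1 window and 3 times in the Col4a2 window, including 1 match in the shared stretch, and 35.7% of all 32851 RefSeq windows held them. The letters CCAAT occurred 1 time in each window, with no match wholly inside the shared stretch (that of Col4a2 runs across its edge), against 37.4% of all windows. TATAAA was in neither window and in 13.6% of all windows. Of the 10 genes, 7 had a window, of which 6 held GGGCGG and 4 held CCAAT.

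Genes of chromosome 8 were shifted as a whole. The median log2 fold change of the 647 tested genes of chromosome 8 was -0.21, and 36.5% of them were called, 34.5% lower and 2.01% higher. Chromosome 6, which carries none of the 10 genes, had a median of -0.25. On each of the other chromosomes the median was between -0.01 and 0.05, and between 11.9% and 17.7% of genes were called. Relative to the median of chromosome 8, Col4a1 was at -0.28 and Col4a2 at -0.47, and 13.4% and 4.48% of the tested genes of the chromosome had a lower log2 fold change. Within 1 Mb of the pair, 8 other genes were tested. Of these, 1 fell and 0 rose: the growth regulator gene Ing1 (-0.36 ± 0.07, adjusted p = 3.13e-05), named after its value was seen. The other 7 did not pass. Among them was Irs2, the insulin receptor substrate gene next to Col4a1 (log2 fold change -0.12 ± 0.06, adjusted p = 0.212), also named after its value was seen. The part of the chromosome-wide shift in the loss of collagen IV was not tested. The other 8 genes lie on 8 other chromosomes, and 5 of these 8 fell and 1 rose.

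**Figure D2:**
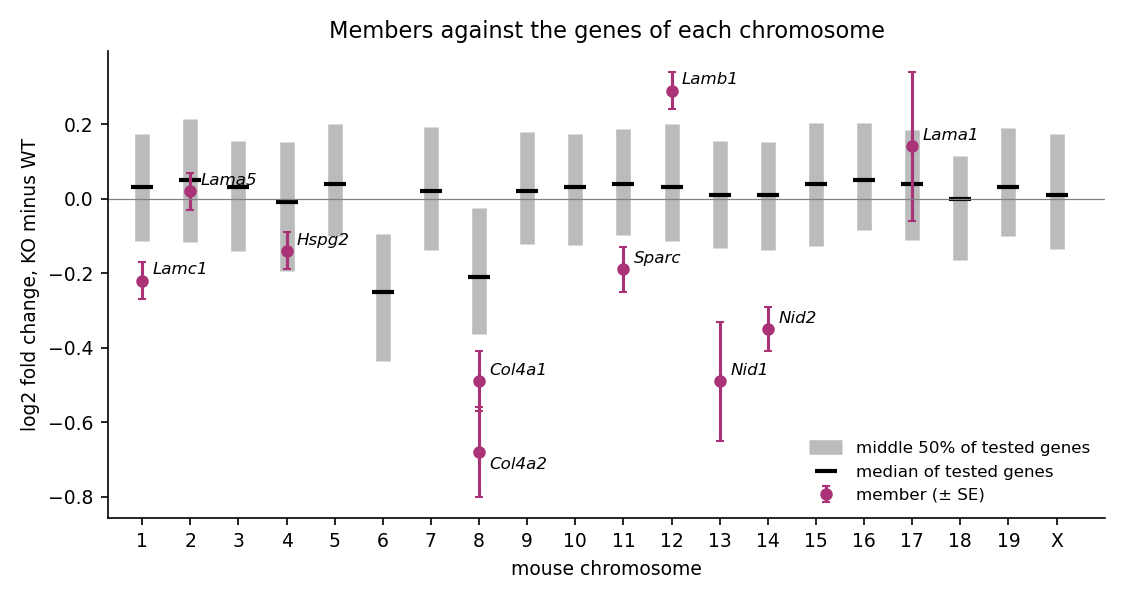
Log2 fold change of KO minus WT (vertical axis) of the 10 genes with their SE (points and bars), over the middle 50% (grey) and the median (black line) of the tested genes on each chromosome (horizontal axis). Chromosomes 6 and 8 are shifted down, with medians of -0.25 and -0.21, and Col4a1 and Col4a2 lie below the grey range of chromosome 8; Nid1, Nid2, Lamc1 and Sparc lie below the grey range of chromosomes whose medians are near 0.

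Both nidogen genes fell. Nid2 (chromosome 14, 19751257 to 19811787), which encodes one of the linkers between laminin and collagen IV, had 313, 296 and 279 CPM in WT and 242, 236 and 215 CPM in KO. No KO library reached the lowest WT library. The means were 296 ± 17.2 and 231 ± 14.0 CPM (SD, n = 3 each), a log2 fold change of -0.35 ± 0.06 (adjusted p = 6.33e-07). Nid1 (chromosome 13, 13437602 to 13512275), its paralog with the same linking role, was far less abundant, with 19.1, 27.3 and 21.2 CPM in WT and 13.8, 19.0 and 14.9 CPM in KO. WT library 02 was high, and the highest KO library lay just below the lowest WT library. Without TMM factors this order turned, with 2.77 CPM per kilobase of exon in KO library 05 and 2.70 in WT library 01, so that the separation of the groups rests on the scaling. The log2 fold change was -0.49 ± 0.16 (adjusted p = 0.0229). It did not pass without WT library 02 (-0.34, adjusted p = 0.237), without KO library 04 (-0.40, adjusted p = 0.136), without KO library 06 (-0.45, adjusted p = 0.0823) or with DESeq2 (adjusted p = 0.0979). Nid2 made up 94.6% ± 1.04 of the nidogen level per length in WT and 95.1% ± 0.782 in KO (SD, n = 3 each). The log2 ratio of Nid1 to Nid2 counts overlapped between the groups (-3.73 ± 0.30 and -3.87 ± 0.25; exact permutation p = 0.5).

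The laminin chains went different ways, and their sum was 1490.0 ± 71.7 CPM in WT against 1494 ± 57.1 CPM in KO (SD, n = 3 each). Lamb1 (chromosome 12, 31265234 to 31329644), the beta 1 chain gene, had 303, 295 and 301 CPM in WT, against 363, 371 and 366 CPM in KO. The libraries of each group lay close together and the groups were well apart: the WT mean was 299.5 ± 4.21 CPM and the KO mean 367 ± 4.15 CPM (SD, n = 3 each). Its log2 fold change was 0.29 ± 0.05 (adjusted p = 6.13e-06). Lamc1 (chromosome 1, 153218922 to 153332786), the gamma 1 chain gene, had 575, 506 and 506 CPM in WT and 454, 482 and 428 CPM in KO. WT library 01 was the highest, and every KO library was below every WT library. The log2 fold change was -0.22 ± 0.05 (adjusted p = 0.000729).

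Lama5 encodes the alpha chain that was by far the more abundant, and it showed no detectable difference. It had 683, 623 and 647 CPM in WT and 655, 693 and 634 CPM in KO. The groups overlapped, at a log2 fold change of 0.02 ± 0.05 (adjusted p = 0.811). The sign changed when WT library 02 (-0.01) or KO library 05 (-0.02) was left out. Lama5 lies on chromosome 2 (180176373 to 180225859, minus strand), 32680 bases from the deleted gene. Of its tested neighbours, the ribosomal protein gene Rps21, between Lama5 and Cables2, had 42.8% of its WT level in KO (-1.22 ± 0.05, adjusted p = 2.17e-32), whereas the proteasome receptor gene Adrm1 on the far side did not pass (log2 fold change 0.01 ± 0.08, adjusted p = 0.957). Lama1 (chromosome 17, 67697265 to 67822645), the alpha chain gene of the first embryonic laminins, had only 49, 52 and 43 counts in the WT libraries. The KO libraries held 68, 47 and 59 counts. In CPM, KO library 05 (8.92) lay below the WT libraries (10.3, 11.6 and 10.3), and the other KO libraries (13.2 and 13.3) lay above them. The log2 fold change was 0.14 ± 0.20 (adjusted p = 0.718), so a difference was not detectable at this depth.

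Ratios within a library do not depend on how libraries are scaled. The log2 ratio of Lamb1 to Lamc1 counts was -0.92, -0.78 and -0.75 in WT and -0.32, -0.38 and -0.22 in KO. The groups did not overlap, and the ratio was 0.51 higher in KO (exact two-sided permutation test, p = 0.1, adjusted p = 0.25 over 5 ratios). This is the smallest p that 3 libraries against 3 allow. Per length of exon, Lamb1 made up 32.1% ± 1.39 of the sum of Lamb1 and Lamc1 in WT and 40.3% ± 1.30 in KO (SD, n = 3 each). These shares depend on the length used. Per kilobase of the longest transcript, the means of Lamb1 and Lamc1 were 51.3 and 68.7 in WT and 63.6 and 59.8 in KO. The log2 ratio of the alpha chains, Lama1 plus Lama5, to Lamc1 was 0.27, 0.33 and 0.38 in WT and 0.56, 0.54 and 0.60 in KO, a difference of 0.24 with no overlap (exact permutation p = 0.1, adjusted p = 0.25). The log2 ratio of Lama1 to Lama5 was -5.93 ± 0.16 in WT and -5.83 ± 0.39 in KO, with overlap (SD, n = 3 each; exact permutation p = 0.8).

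**Figure D3:**
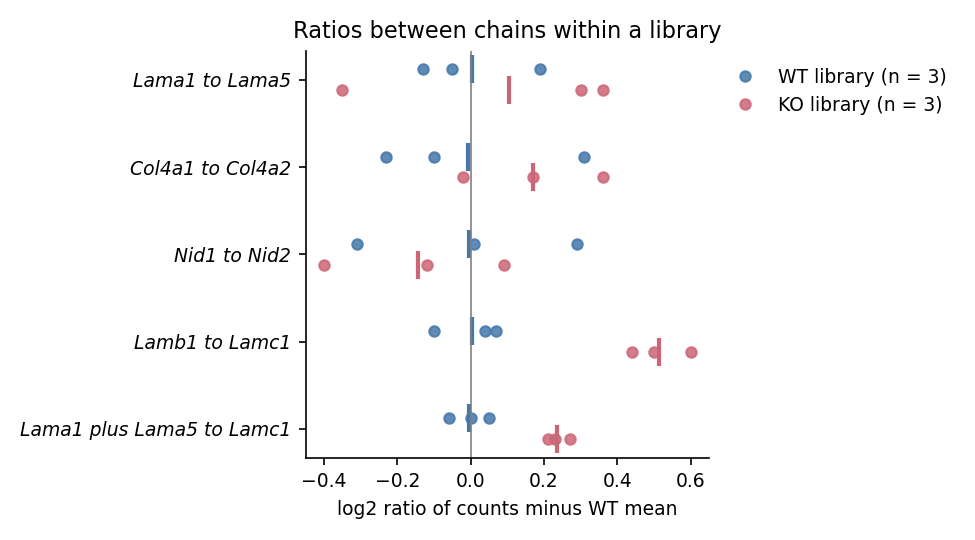
Log2 ratio of counts between chains within each library, minus the WT mean (horizontal axis); points are libraries (3 per group) and vertical ticks are group means. The ratios of Lamb1 to Lamc1 and of the alpha chains to Lamc1 are higher in all 3 KO libraries than in any WT library (by 0.51 and 0.24 on average), and the other ratios overlap.

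Hspg2 and Sparc had the smallest falls. Hspg2 (chromosome 4, 137468769 to 137570630), the perlecan gene, had 852, 718 and 725 CPM in WT and 718, 713 and 656 CPM in KO. WT library 01 stood above the rest, and the groups touched. The log2 fold change was -0.14 ± 0.05 (adjusted p = 0.0414). Without WT library 01 it was -0.05 (adjusted p = 0.571) and without KO library 06 -0.10 (adjusted p = 0.264). The call also ended without KO library 05 (adjusted p = 0.0504), with upper-quartile factors (0.0832), with library size alone (0.0839) and with DESeq2 (0.149). Sparc (chromosome 11, 55394500 to 55423183), which encodes a collagen-binding glycoprotein, had 174, 166 and 177 CPM in WT and 145, 157 and 150.1 CPM in KO. The groups did not overlap, and the log2 fold change was -0.19 ± 0.06 (adjusted p = 0.0203). It kept a value between -0.22 and -0.17 in every alternative fit, but it no longer passed when WT library 01 (adjusted p = 0.0522), WT library 03 (0.0888), KO library 04 (0.0955) or KO library 06 (0.0571) was left out, or in DESeq2 (0.0584).

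In the authors' deposited table, Lamb1 has a signed fold of 1.22 (FDR 1.84e-11), Col4a1 of -1.41 (2.38e-08), Col4a2 of -1.60 (4.12e-05), Nid2 of -1.28 (4.51e-05) and Sparc of -1.15 (0.029), with negative values where KO is lower. In that same deposited table, Lamc1 (FDR 0.0863), Nid1 (0.0562) and Hspg2 (0.857) do not reach 0.05, and 8.75% of genes with a count do.

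Levels of different genes were set side by side per length, as CPM per kilobase of annotated exon, here without TMM factors. In WT, Lamc1 was highest (63.3 ± 4.37), followed by Nid2 (56.7 ± 3.16), Lama5 (56.7 ± 2.22) and Hspg2 (53.0 ± 4.89), and these last 3 overlapped between libraries. Sparc (45.1 ± 1.23) and Lamb1 (29.9 ± 0.189) came next, then Col4a1 (12.0 ± 0.346), Col4a2 (6.59 ± 1.08), Nid1 (3.22 ± 0.633) and Lama1 (1.10 ± 0.0886; all SD, n = 3), each below all libraries of the gene before it. Lama5 made up 98.1% ± 0.215 of the sum of Lama1 and Lama5 per length. The levels of Sparc and Lamb1 depend on the length used: per kilobase of the longest transcript, they were 74.3 and 51.3. Sparc was then the highest of the 10, and Lamb1 kept rank 6. In KO, Lamb1 was at 37.1 ± 0.682 and Lamc1 at 55.1 ± 3.75 per length of exon (SD, n = 3 each). Per kilobase of the longest transcript their KO means were 63.6 and 59.8, so their order in KO depends on the length.

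**Figure D4:**
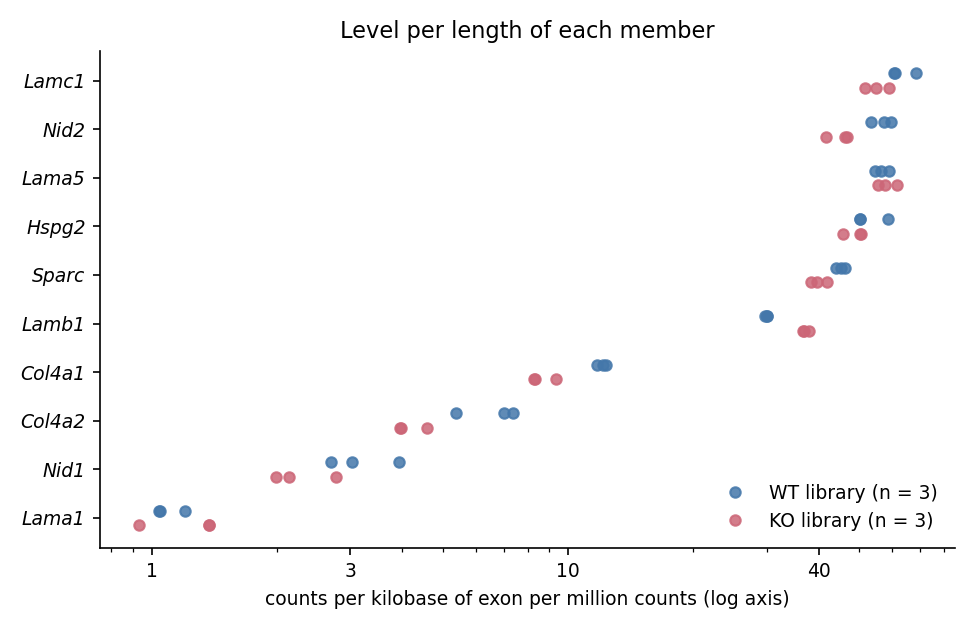
CPM per kilobase of exon, without TMM factors (horizontal log axis), of each gene in each library, ordered by the WT mean; points are libraries, 3 per group. Lamc1, Nid2, Lama5, Hspg2 and Sparc lie between 38.4 and 68.4 in all libraries, and Lama1 lies between 0.932 and 1.37.

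Of 26 other listed components of the basement membrane, 11 were tested, 3 rose and 0 fell, with a median log2 fold change of 0.25 (edgeR, as above; 1 fell without WT library 02). Also 0 were lower at an unadjusted p under 0.05 or with DESeq2. With 9.13% of all tested genes lower, 0 of 11 is near the share of all genes. The 3 of 11 that rose stand beside 8.13% of all tested genes. Lama3, an alpha chain gene of epithelial laminins on chromosome 18, had 29.7, 33.3 and 35.3 CPM in WT and 53.3, 54.5 and 50.6 CPM in KO. The groups were well apart, with a log2 fold change of 0.69 ± 0.11 (adjusted p = 6.32e-07). Fbln1, a fibulin gene, rose by 0.34 ± 0.09 (adjusted p = 0.00542). Col18a1, which encodes the core of a heparan sulphate proteoglycan with a collagen domain, rose by 0.13 ± 0.04 (adjusted p = 0.0232), but not when WT library 02 or 03 or KO library 05 or 06 was left out (adjusted p up to 0.139). The agrin gene Agrn did not pass (log2 fold change -0.09 ± 0.06, adjusted p = 0.32). Col4a3 was listed at 0 in all libraries, and the other 14 untested genes lay below the filter, among them Lama2, Lama4, Col4a4, Col4a5 and Col4a6.

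Among 18 tested genes for collagen and laminin processing, 3 fell and 1 rose (median -0.01), a share near the 17.3% of all tested genes that were called in either direction. P4ha1, a catalytic subunit of collagen prolyl hydroxylase, went from 28.1 ± 2.03 to 17.0 ± 1.66 CPM (SD, n = 3 each; -0.72 ± 0.15, adjusted p = 9.98e-05). Colgalt1, a collagen galactosyltransferase gene that also lies on chromosome 8, went from 152 ± 10.2 to 96.1 ± 5.76 CPM (SD, n = 3 each; -0.67 ± 0.07, adjusted p = 2.07e-12). Plod1, a lysyl hydroxylase gene, fell (-0.50 ± 0.14, adjusted p = 0.00769), though not without WT library 01 (adjusted p = 0.0708). Its paralog Plod2 rose (0.35 ± 0.12, adjusted p = 0.0261), a call that ended with DESeq2 (0.0946) and without WT library 01 or any 1 KO library (adjusted p up to 0.201). The collagen chaperone gene Serpinh1 (0.04 ± 0.05, adjusted p = 0.714), the prolyl hydroxylase beta subunit gene P4hb (-0.11 ± 0.05, adjusted p = 0.144) and Pxdn, whose enzyme crosslinks collagen IV (0.06 ± 0.08, adjusted p = 0.683), did not pass.

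Of 12 tested receptor genes, 4 fell and 3 rose (median -0.04), beside 17.3% called among all tested genes. The laminin-binding integrin subunit genes Itga6 (-0.32 ± 0.05, adjusted p = 4.51e-07) and Itga3 (-0.26 ± 0.05, adjusted p = 0.000146) fell with their partner Itgb1 on chromosome 8 (-0.22 ± 0.05, adjusted p = 0.000379). Bcam, the gene of a receptor for laminin alpha 5, went from 199 ± 8.04 to 151 ± 5.43 CPM (SD, n = 3 each; -0.40 ± 0.06, adjusted p = 3.1e-07). Those that rose were the syndecan gene Sdc4 (0.51 ± 0.08, adjusted p = 2.5e-06), the collagen receptor kinase gene Ddr1 (0.36 ± 0.08, adjusted p = 0.000213) and Itgb4, the integrin subunit of hemidesmosomes (0.54 ± 0.19, adjusted p = 0.0436). Itgb4 no longer passed when low counts were kept (adjusted p = 0.0501), in DESeq2 (0.177) and when any of WT libraries 01 and 02 and KO libraries 04 and 05 was left out (adjusted p up to 0.246). The dystroglycan gene Dag1 did not pass (log2 fold change -0.03 ± 0.05, adjusted p = 0.766), and its sign changed when WT library 01 was left out (0.04).

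Of 11 tested genes for the sugar chain by which dystroglycan binds laminin, 3 rose and 1 fell (median 0.14), beside the same 17.3%. Among those that rose were Tmem5, now named Rxylt1 (0.60 ± 0.12, adjusted p = 9.68e-05), and Pomt2 (0.38 ± 0.13, adjusted p = 0.0346), and Pomk on chromosome 8 fell (-0.48 ± 0.13, adjusted p = 0.00436). Pomk did not pass without KO library 05, and Pomt2 did not pass with DESeq2, with no low-count filter or in 5 of the 6 fits without 1 library. Of 16 tested genes for matrix proteases and their inhibitors, 2 fell and 1 rose (median -0.12), a share near that of all genes. The gelatinase gene Mmp2, whose enzyme cleaves collagen IV, rose from 34.7 ± 3.34 to 47.3 ± 4.93 CPM although it lies on chromosome 8 (SD, n = 3 each; 0.44 ± 0.11, adjusted p = 0.00277). The cathepsin gene Ctsl fell by 0.22 ± 0.06 on the log2 scale (adjusted p = 0.00487), and Adamts15, which had 3.04 CPM in WT against 0.930 in KO, fell by 1.67 ± 0.49 (adjusted p = 0.0101). Adamts15 had only 5, 6 and 3 counts in the KO libraries, near the floor of 3 counts, did not pass without WT library 01 (adjusted p = 0.0527) and got no adjusted p from DESeq2.

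**Figure D5:**
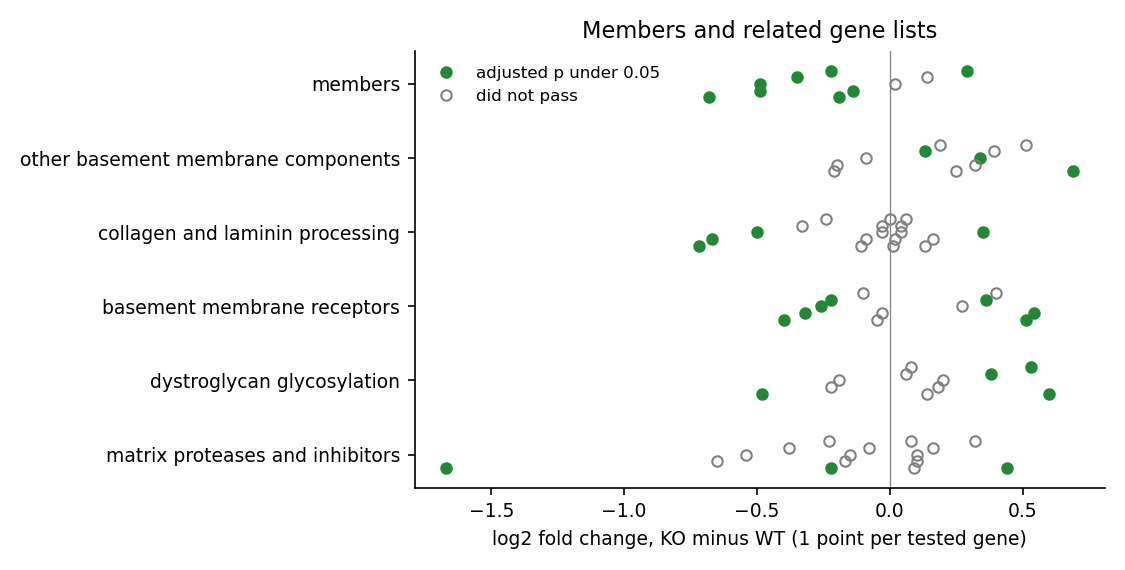
Log2 fold change of KO minus WT (horizontal axis) of every tested gene of the 10 members and of the 5 related lists (rows); filled points passed at an adjusted p under 0.05 and open points did not. The members have 7 filled points below 0 and 1 above, and the other basement membrane components have 3 above 0 and none below.

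Parietal endoderm makes large amounts of laminin and collagen IV, so its markers were read beside the 10 genes. Of 12 listed markers, 5 were tested, 1 fell and 1 rose (median 0.05), beside 9.13% lower and 8.13% higher among all tested genes. The transcription factor gene Gata4 had 3.14, 4.02 and 3.10 CPM in WT and 1.75, 0.569 and 2.03 CPM in the KO libraries. All KO libraries lay below WT (-1.25 ± 0.45, adjusted p = 0.0393), near the level of 3 counts (0.576 to 0.708 CPM), and the call ended in 5 of the 6 fits without 1 library and with no low-count filter. The keratin gene Krt18, also used in other epithelia, rose (0.33 ± 0.09, adjusted p = 0.00377). The summed level of the whole list was 89.4 to 107 CPM in WT and 101 to 109 CPM in KO, and without Krt8 and Krt18 it was 18.4, 21.4 and 27.2 CPM in WT and 14.4, 16.3 and 19.7 CPM in the KO libraries, which overlapped WT. Of the 7 markers below the filter, Sox17 had 1.26, 2.01 and 1.67 CPM in WT against 0.584, 1.14 and 0.904 in KO. Sox7 had 0.838, 1.12 and 0.716 CPM against 0.389, 0.190 and 0.678. Gata6 had 1.05, 1.34 and 1.91 CPM in WT against 0.973, 1.33 and 0.452 in KO, and the proteoglycan gene Srgn had 3, 2 and 1 counts in WT and 0 in every KO library. Pdgfra had 1.05, 0.894 and 0.716 CPM in WT against 0.195, 1.52 and 1.36 in KO, with a higher mean in KO. Thbd, also higher on average in KO, had 0, 1 and 0 counts in WT against 0, 3 and 2. Plat had 9, 9 and 11 counts in WT against 8, 10 and 3 in KO. Of all 12 markers, the KO libraries lay below WT in 4 (Gata4, Sox17, Sox7 and Srgn) and above in 2 (Krt18 and Fst), and 6 overlapped. Among all tested genes KO lay below in 16.0% and above in 15.6%, a share that leaves out genes below the filter. Sox17, Sox7 and Srgn had only 0 to 9 counts a library, so little can be read from their order. The part of these cells in the levels of collagen IV and nidogens was not tested.

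The visceral endoderm list had 2 of 10 markers tested, of which the X-linked homeobox gene Rhox5 fell (-0.31 ± 0.09, adjusted p = 0.00723, but not without WT library 03), beside 9.13% of all tested genes. Afp and Apoa4 were at 0 in all libraries. The list summed to 80.4 to 97.1 CPM in WT and 68.1 to 73.0 CPM in KO. Most of this was Rhox5, with 71.2, 76.4 and 91.4 CPM in WT and 62.7, 64.7 and 64.9 CPM in KO. Of all 10 markers, KO lay below WT in 1 (Rhox5) and above in 1 (Apob, 0.838, 0.894 and 1.19 CPM in WT against 2.34, 1.52 and 2.49), and 8 overlapped. Among all tested genes KO lay below in 16.0% and above in 15.6%. The fibroblast list had 4 of 12 tested and 0 called, also 0 at an unadjusted p under 0.05 and 0 with DESeq2. With 17.3% of all tested genes called, 0 of 4 is near the share of all genes. The list had a sum of 39.8 to 42.7 CPM in WT and 42.1 to 44.8 CPM in KO, with Lum and Postn at 0 in all libraries. Of the 9 EpiLC markers, 2 rose and 3 fell (median 0.05), beside 8.13% higher and 9.13% lower among all tested genes. The growth factor gene Fgf5 (1.17 ± 0.14, adjusted p = 5.2e-10) and the POU factor gene Pou3f1 (0.88 ± 0.05, adjusted p = 1.5e-23) rose. Cdh1, the chromosome 8 gene of E-cadherin (-0.23 ± 0.04, adjusted p = 1.17e-05), Lin28a (-0.20 ± 0.05, adjusted p = 0.000536) and Dnmt3a (-0.17 ± 0.04, adjusted p = 0.00186) fell. The part of these differences in the levels of the 10 genes was not tested.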

How the data were processed

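The authors deposited 1 table of whole-number read counts per gene for 6 libraries, not normalized, per the file headers. The p-values with FDR correction and the signed fold (used as a score, negative where KO is lower) are results of a comparison of the genotypes that the authors deposited, per the file headers. Per the submitters' processing notes, the build was mm10 and edgeR was among the tools. No aligner, counting program or strand setting was found among the labels and headers (not given in the sources used here), so reads of overlapping genes may be misplaced: Col4a1 and Col4a2 share 22 bases, and Nid2 ends inside Rtraf on the other strand. Overlapping antisense models matched by symbol were listed at 0. Rtraf was not among the overlapping genes matched by symbol, so its counts were not read beside those of Nid2. Another 18 columns of values per library were not used. Column names give genotype and library number (01 to 06), with no replicate number.

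Genes were filtered with filterByExpr, scaled with TMM factors and fitted with edgeR 4.0.16 (robust quasi-likelihood, group as the only term, R 4.3.3). The SE is the log2 fold change divided by the square root of F. The fit was tested on simulated data. Fits with upper-quartile factors, library size alone, no Gm26917 row, other filters, DESeq2 1.42.0 and each library left out served as alternatives. Exon lengths and identifiers come from GENCODE M21 (GRCm38), and coordinates are those of the table with 1 added to the start. For 7 of the 10 genes they equal GENCODE. Floors of 3 counts cover counting error only. The 10 genes and all lists were chosen with earlier results of these data known. The text names the 10 genes, Cables2, the tested neighbours of Lama5, 9 fixed receptor and matrix genes, and up to 3 called genes in each direction from every list with a mean of at least 1 CPM, those with the largest fitted change. One result that this rule would name is not reported here.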

Additional observations from a re-analysis of the deposited data

How the results depend on the processing

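No paired analysis was possible because the count columns carry no replicate numbers. DESeq2 called fewer genes in all, 569 higher and 693 lower against 943 and 1059, and fewer among the lists: 4 of the 10 genes lower, 0 processing genes higher, 1 protease gene lower and 0 parietal endoderm markers lower, where Adamts15 and Gata4 got no adjusted p and are not lost calls. With no low-count filter 0 parietal endoderm markers were lower. Leaving out 1 library gave 4 to 6 of the 10 genes lower, 0 to 1 other components lower, 0 to 1 processing genes higher, 1 to 2 dystroglycan genes higher and 0 to 1 lower, 1 to 3 protease genes lower, 0 to 1 parietal and 0 to 1 visceral endoderm markers lower. It moved Lama5 between -0.02 and 0.06 and Dag1 between -0.09 and 0.04, and relative to the median of chromosome 2 Lama5 was at -0.03. The causes were not tested. The differences in the 5 ratios moved by less than 1 pooled SD of the 2 groups when a library was left out or 1 count was added, although that of Lama1 to Lama5 then ran from -0.03 to 0.33. At this depth Lama1 and Nid1, with 43 to 122 counts in a library, had the widest errors of the 10 genes (SE 0.20 and 0.16).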
